A study of Bos taurus with 34 samples.

Results

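Small RNA of blood plasma was compared between heifers that became pregnant to artificial insemination (AI-preg) and heifers that failed to become pregnant in the breeding season (non-pregnant). The 11 plasma libraries compared, 6 AI-preg and 5 non-pregnant, were taken by their labelled class from 17 plasma libraries, and the series holds 34 libraries in all with the mRNA of peripheral white blood cells (PWBC) of the same heifers. The other 6 plasma libraries, from heifers that became pregnant later to bulls (NB-preg), entered only the estimate of the spread. Genes of any type were tested, not miRNAs alone, and 1086 of 27570 genes passed a filter of over 1 CPM (counts per 1000000 counts) in 5 or more of the 17 libraries.

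The animals were crossbred Angus-Simmental yearlings of a single herd, reared, vaccinated, synchronized and inseminated together with semen of a single sire, and exposed to bulls afterwards. Blood was drawn from the jugular vein right after insemination, so each heifer was assigned to its group by an outcome that lay ahead. The groups carried no treatment or genotype that set them apart, and each library came from a different animal. The comparison asks whether circulating small RNA on the day of insemination differed with the outcome.

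Plasma miRNAs are short regulatory RNAs that leave cells in vesicles or bound to proteins and resist degradation in the circulation. Blood cells, platelets, liver, muscle and epithelia all contribute to this pool, and some miRNAs are abundant in 1 of these sources, such as miR-122 in hepatocytes and miR-133a in striated muscle. Libraries of plasma small RNA also hold fragments of other RNA classes, including pieces of mRNA, transfer RNA and other structural RNA.

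The total count was 1073910 in the shallowest AI-preg library (heifer 120), 5748147 at the median and 9091334 in heifer 92, the deepest. Totals of the non-pregnant libraries were 4888852, 6102047, 7673836, 9053318 and 17024777. Depth thus overlapped between the groups, but 3 AI-preg libraries lay below every non-pregnant one. The ratio of the geometric mean totals, AI-preg to non-pregnant, was 0.525 (exact permutation test, two-sided, p = 0.165), and 0.897 without the counts of ENSBTAG00000037264 (p = 0.816). A single count was worth 0.934 CPM in heifer 120 and 0.0588 CPM in non-pregnant heifer 107, so a count of 0, which allows up to 3 counts, allows 2.80 CPM and 0.176 CPM there. A mean count under 10 over the 11 libraries was found for 505 of the 1086 genes.

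Most plasma counts fell on 1 gene, ENSBTAG00000037264, which no table used here pairs with a name. It held 49.7% of the counts of the genes kept in AI-preg heifer 119, a median of 69.7% over the AI-preg libraries, and 85.7% in heifer 99. In the non-pregnant libraries it held 63.5%, 73.2%, 82.7%, 87.5% and 92.6%. The ranges overlapped, with the lowest 2 values in AI-preg heifers and the highest 2 in non-pregnant heifers. The mean was 68.0% ± 12.9 (SD) in AI-preg and 79.9% ± 11.6 in non-pregnant libraries, a difference of -11.9 percentage points that did not pass an exact permutation test (two-sided, p = 0.147, smallest possible p = 0.00216). The 95% Wilson interval, which covers counting error only, was 67.0% to 67.2% in the shallowest library. The same gene had 0 counts in all 17 PWBC libraries, which allows at most 0.717 CPM in each. Those libraries were prepared from mRNA, so the 0 counts do not show that this RNA was absent from the cells.

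**Figure D1:**
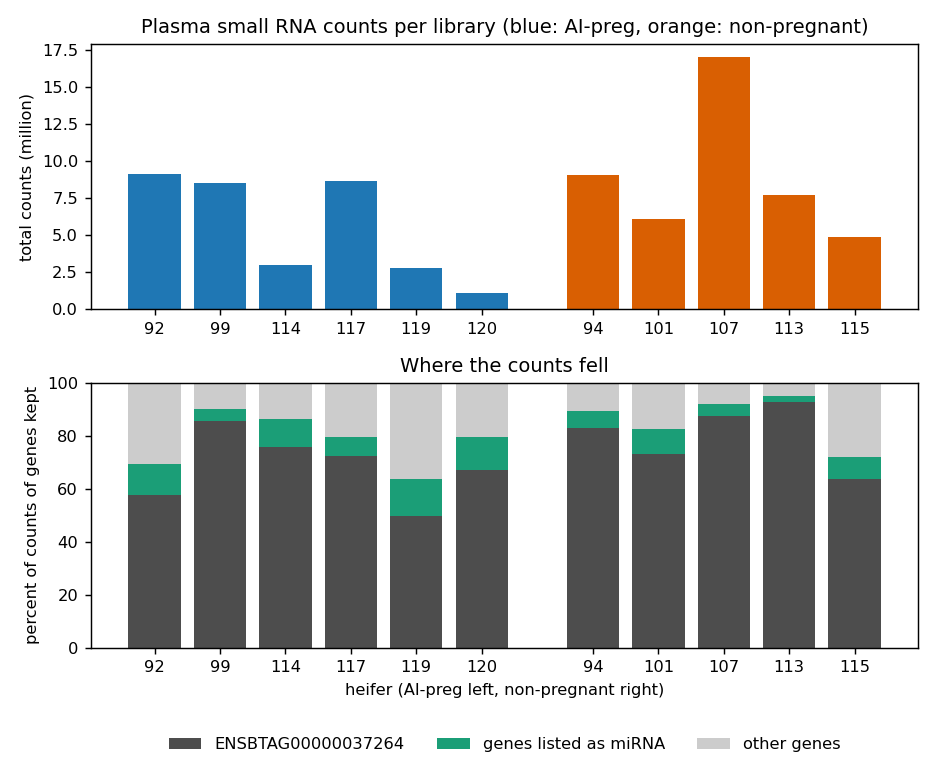
Total counts of each plasma library (top) and the percent of the counts of the kept genes that fell on ENSBTAG00000037264, on genes listed as miRNA and on other genes (bottom), 1 bar per heifer. The share of ENSBTAG00000037264 lay at 49.7% to 85.7% in AI-preg libraries and at 63.5% to 92.6% in non-pregnant ones.

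Because CPM values share a total, a lower share of ENSBTAG00000037264 raises the CPM of all other genes, and most differences are therefore also given without that gene in the total. Over all 1086 genes the median log2 fold change, AI-preg minus non-pregnant, was 0.82 with the total of all kept genes. It was 0.17 when ENSBTAG00000037264 was left out of the total, -0.056 with TMM factors and 0.017 with DESeq2 size factors. The fitted value was above 0 for 951 genes (87.6%) with the full total, for 654 without that gene (60.2%) and for 498 with TMM factors (45.9%). A log2 fold change near 0.82 in the first fit is thus the middle of the distribution, and a gene below it lay lower than the typical plasma gene.

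**Figure D2:**
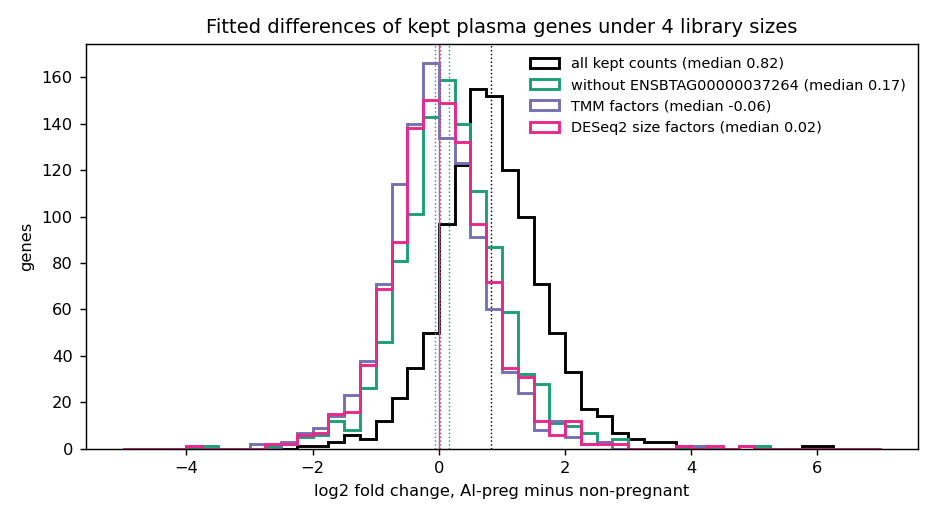
Histogram of the fitted log2 fold change (x axis, AI-preg minus non-pregnant) of 1086 plasma genes (y axis, number of genes) under 4 choices of library size, with dotted lines at the medians. The median moved from 0.82 with all kept counts to 0.17, -0.056 and 0.017 under the other choices.

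No gene differed between AI-preg and non-pregnant plasma at an adjusted p under 0.05 by edgeR's quasi-likelihood test (0 of 1086, 0%), and the smallest adjusted p was 0.183. At an unadjusted p under 0.05 there were 74 genes higher (6.81%) and 1 gene lower (0.0921%) in AI-preg. That imbalance followed the scaling: 28 genes were higher and 14 lower without ENSBTAG00000037264 in the total, 23 and 22 with TMM factors, and 25 and 17 with DESeq2 size factors. Among other tools, DESeq2's Wald test called 1 gene higher and 0 lower, with 31 and 21 at an unadjusted p under 0.05. The likelihood ratio test of edgeR called 1 higher and 0 lower, with 123 and 1 unadjusted, and requiring 0.03 or less in both tools, unadjusted, gave 25 genes higher and 0 lower. Those of the 25 with a name were RPL36, bta-mir-122, LSP1, ECE1 and bta-mir-2285t. A missing call does not show that levels were alike, since the biological coefficient of variation was 0.947.

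The lowest p belonged to ENSBTAG00000036380, a gene without a name that had 0, 2, 4, 7, 12 and 35 counts in the AI-preg libraries and 0, 0, 0, 1 and 3 in the non-pregnant ones. Its level was 32.7 CPM in heifer 120, the shallowest library, against at most 4.30 CPM in the other AI-preg heifers and 0.176 CPM in the non-pregnant heifers. The groups overlapped at 0, with 5 of 6 AI-preg libraries above the highest non-pregnant value. The fitted log2 fold change was 6.01 ± 1.43 (SE, adjusted p = 0.183), 5.19 above the median of all genes, and 4.84 without ENSBTAG00000037264. It was the gene called by the likelihood ratio test (adjusted p = 0.0131), but heifer 120 held 35 of its 60 AI-preg counts, and without that heifer the log2 fold change was 3.76 (edgeR quasi-likelihood, adjusted p = 0.740). With each library left out in turn the adjusted p ranged from 0.0551, without AI-preg heifer 99, to 0.853, without non-pregnant heifer 94.

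ENSBTAG00000048439, also without a name, was the gene that DESeq2 called (adjusted p = 0.0414). It had 1138 counts in AI-preg heifer 92 and 1074 in heifer 119, against 1, 2, 4 and 11 in the other AI-preg libraries and 0, 2, 8, 14 and 18 in the non-pregnant ones. The difference thus rested on 2 heifers, and the remaining 4 AI-preg values lay within the non-pregnant range. The log2 fold change was 6.00 ± 1.77 by the quasi-likelihood test (adjusted p = 0.496), 5.10 without ENSBTAG00000037264 in the total and 4.27 without heifer 119.

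The paper names miR-11995 as the exception among plasma miRNAs, with a higher level in AI-preg than in non-pregnant heifers. The identifier taken as miR-11995 was ENSBTAG00000052419. That pairing is an inference, since the authors' code prints an identifier 1 digit short and a single identifier of the file matches it. It had 2, 17, 10 and 9 counts in AI-preg heifers 114, 117, 119 and 120, 0 in heifers 92 and 99, and 2 counts in non-pregnant heifer 101 with 0 in the other non-pregnant libraries. Most AI-preg libraries thus held some reads of it and most non-pregnant libraries none, but the groups overlapped at 0. Summed over libraries, 38 counts stood against 2, a ratio of 25.7 per count sequenced with an exact 95% interval of 6.64 to 220 that covers counting error only. The ratio was 14.7 (3.79 to 126) when ENSBTAG00000037264 was left out of the totals. The fitted log2 fold change of 4.93 ± 1.49 did not pass the test (adjusted p = 0.496), and was 4.21 without that gene. It was 4.10 without AI-preg heifer 120 and 6.95 without non-pregnant heifer 101, which held both non-pregnant counts, so that the latter value compares with libraries at 0 and depends on the prior count of the fit.

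**Figure D3:**
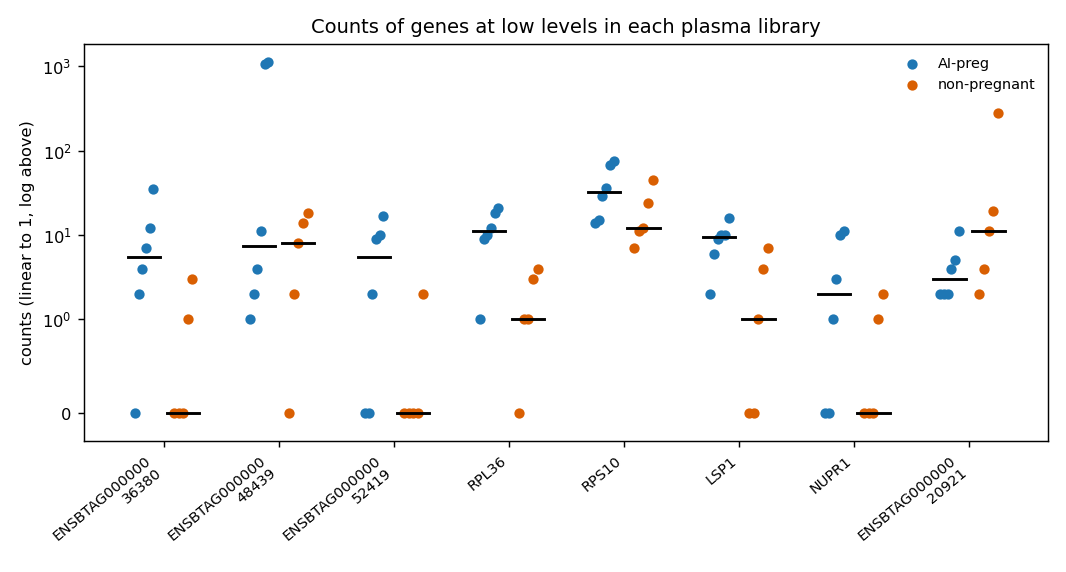
Counts, not scaled for depth, of 8 genes at low levels in each plasma library (y axis, linear to 1 and log above), with 1 point per heifer and black bars at the group medians. The 2 high AI-preg points of ENSBTAG00000048439 are heifers 92 and 119, and the high non-pregnant point of ENSBTAG00000020921 is heifer 94 with 277 counts.

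Genes listed as miRNA numbered 119 of the 1086, of which 111 had a name. The tables that give these classes cover only part of the miRNAs that the study itself counted in plasma, so other miRNAs may stand among the genes not listed, and each miRNA count, share and median here is over those listed. They held 4.49% of the counts in AI-preg heifer 99, a median of 11.2% and up to 13.9% in heifer 119, against 2.21%, 4.30%, 6.43%, 8.22% and 9.32% in the non-pregnant libraries. With ENSBTAG00000037264 left out of the total, their share was 32.4% ± 7.34 (SD) in AI-preg and 31.7% ± 5.81 in non-pregnant libraries. The higher miRNA share of the AI-preg libraries was thus no longer seen on that scale. No miRNA passed the test (0 of 119), and 6 were higher and 0 lower at an unadjusted p under 0.05, beside 6.81% and 0.0921% of all genes. Their median log2 fold change was 0.82, equal to that of all genes, and it was 0.18 without ENSBTAG00000037264.

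Among the genes listed as miRNA, ENSBTAG00000029802, which has no symbol, had the most counts. Without ENSBTAG00000037264 in the total it was at 33466, 82457 and 129263 CPM (lowest, median and highest) in AI-preg, and at 66704, 90623, 93187, 95452 and 179754 CPM in non-pregnant libraries. MIR423 came next at 35628, 54882 and 67169 CPM in AI-preg and 34146, 44746, 54157, 59799 and 80744 CPM in non-pregnant plasma. Both miRNAs overlapped widely between the groups. Their log2 fold changes of 0.39 and 0.47 were below the median of all genes and turned negative on each of the other scales (-0.35 and -0.023 without ENSBTAG00000037264). With the full total both were lower without non-pregnant heifer 113 (0.17 and 0.21), and the highest values were 0.61 without non-pregnant heifer 94 and 0.78 without non-pregnant heifer 115.

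bta-mir-122, which hepatocytes express at high levels and which acts in lipid metabolism, was at 0.235, 6.33 and 62.8 CPM (lowest, median and highest) in AI-preg plasma. In the non-pregnant libraries it was at 0.332, 0.391, 0.941, 2.87 and 4.76 CPM. The AI-preg values exceeded the highest non-pregnant value in 4 of 6 heifers, with heifer 119 the highest at 175 counts and heifer 99 the lowest at 2. The log2 fold change of 3.14 ± 1.04 was 2.32 above the median of all genes and did not pass the adjustment (adjusted p = 0.496). It kept its direction on the other scales, at 2.26 without ENSBTAG00000037264, 1.99 with TMM factors and 2.08 with DESeq2 size factors, and was 1.89 without heifer 119. Release from more cells and more release per cell cannot be told apart in plasma.

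bta-mir-192, shared by liver, kidney and gut epithelium, was far more abundant, at 892, 4641 and 12845 CPM in AI-preg and 932, 1094, 1244, 3333 and 6140 CPM in non-pregnant plasma. The groups overlapped, with heifer 119 again the highest. The fitted difference on the log2 scale was 1.05 ± 0.78 (adjusted p = 0.659) and 0.34 without ENSBTAG00000037264. It was 0.57 without AI-preg heifer 119 and 1.68 without non-pregnant heifer 101. Of 3 miRNAs in the liver list these 2 were identified, and both were above the median of all genes, by 2.32 and 0.23, and their median was 1.30 beside 0.17 over all genes without ENSBTAG00000037264.

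The muscle list, with 1 of 6 members identified, lay on the other side. bta-mir-133a, a miRNA of skeletal and cardiac muscle, was at 5.60, 80.3 and 322 CPM in AI-preg plasma. It was at 20.7, 22.8, 247, 374 and 973 CPM in non-pregnant plasma, where heifer 107 was the highest with 16555 counts and heifers 113 and 115 were low. The ranges overlapped, and the log2 fold change was -1.62 ± 0.98 (adjusted p = 0.643), or -2.44 relative to the median of all genes. The value moved to -2.53 without ENSBTAG00000037264 and -2.88 with TMM factors, and was -0.64 without heifer 107.

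ENSBTAG00000036363, without a name, had 1.01 to 1.36 times the counts of bta-mir-133a in each of the 11 libraries (median 1.09). The log2 fold change of this gene was -1.57 ± 0.96, -2.45 without ENSBTAG00000037264 and -0.69 without heifer 107. Why the counts of both genes ran together was not tested, and they are not taken as independent measurements.

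Red cell miRNAs were represented by MIR25 and MIR185, 2 of 8 on the list. MIR25, a member of the miR-17-92 paralog cluster that is abundant in erythrocytes, was at 8967, 22087 and 30653 CPM in AI-preg without ENSBTAG00000037264, and at 8915, 19253, 33253, 33562 and 37261 CPM in non-pregnant plasma. MIR185 was at 5.71, 25.4 and 31.8 CPM against 17.4, 23.0, 24.6, 29.2 and 33.7 CPM on the same scale. Both overlapped between the groups. With the full total MIR25 had a log2 fold change of 0.50, or 0.27 without AI-preg heifer 92, and MIR185 of 0.39, or 0.17 without non-pregnant heifer 113 and 0.72 without non-pregnant heifer 101. The list's median was 0.44 beside 0.82 over all genes, and -0.26 without ENSBTAG00000037264 beside 0.17, so the direction turned with the scale.

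Platelet miRNAs were MIR21 and MIR197, 2 of 6. MIR21, which platelets share with many other cells, was at 815, 4928 and 7008 CPM in AI-preg and at 2011, 2108, 2845, 2944 and 6003 CPM in non-pregnant plasma without ENSBTAG00000037264. Its log2 fold change was 1.11 ± 0.81 (adjusted p = 0.659), stayed above 0 on all 4 scales, and was 0.69 without heifer 119. MIR197 had a log2 fold change of 0.037 with the full total and -0.71 without ENSBTAG00000037264, and was -0.20 without AI-preg heifer 92 and 0.35 without non-pregnant heifer 101. Of 8 platelet mRNAs listed, 2 could be identified by name, of which TUBB1 was kept and ITGA2B was not. TUBB1, the platelet form of beta tubulin, was at 7.04, 11.9 and 25.0 CPM in AI-preg and at 6.13 to 31.8 CPM in non-pregnant plasma (log2 fold change -0.32 ± 0.77, adjusted p = 0.859). That value was -1.15 without ENSBTAG00000037264. With the full total it was -0.58 without AI-preg heifer 114 and turned to 0.022 without non-pregnant heifer 107. The authors centrifuged the plasma again to remove cells, and describe the samples as depleted of white blood cells. Whether platelets left in plasma had a part in any difference was not tested.

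Leukocyte miRNAs were bta-mir-146a and bta-mir-146b, 2 of 6, both of which restrain innate immune signalling. Their log2 fold changes were 1.09 ± 0.88 and 0.20 ± 0.76. bta-mir-146a was reversed only with TMM factors (-0.081), while bta-mir-146b turned negative on all 3 other scales. With the full total bta-mir-146a was 0.64 without AI-preg heifer 114, and bta-mir-146b was -0.019 without non-pregnant heifer 115 and 0.79 without non-pregnant heifer 107. Of 9 leukocyte mRNAs listed, 4 could be identified by name, and 1 of these, PTPRC, was kept. PTPRC, which encodes the leukocyte antigen CD45, was at 0, 1.05 and 1.87 CPM in AI-preg and at 0.130, 0.221, 0.235, 0.615 and 1.48 CPM in non-pregnant plasma. In PWBC its mean was 1219 CPM, a level from a table counted separately. ITGA2B of platelets and CD79A, S100A12 and CXCR2 of leukocytes did not reach the filter in plasma, and none of the 13 red cell mRNAs could be identified by name. Genes of blood cells outside these lists passed it as well. Among them, chosen after their values were seen, were CD74, CD22, CD48, CORO1A, LAPTM5 and LSP1 of leukocytes and SLC6A4 and MPIG6B of platelets. These 8 summed to 8.56, 16.2 and 42.0 CPM (lowest, median and highest) in AI-preg and to 3.91, 16.7 and 20.2 CPM in non-pregnant plasma, and to 36.6, 56.0 and 128 CPM against 49.9, 52.7 and 162 CPM without ENSBTAG00000037264. Their log2 fold changes ran from -0.60 (MPIG6B) to 3.21 (LSP1) with the full total and from -1.62 to 2.41 for the same genes without ENSBTAG00000037264, and none passed the test (adjusted p from 0.496 to 0.927). The share of cells in the plasma cannot be derived from these values, and their part in any difference was not tested.

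Epithelial miRNAs, 4 of 10 on the list, summed to 6736, 8868 and 13061 CPM in AI-preg without ENSBTAG00000037264. In the non-pregnant libraries the median of that sum was 4508 CPM, from 3823 to 13825 CPM. MIR375, a miRNA of endocrine and secretory epithelium and the most abundant of them, was at 6282, 8330 and 11856 CPM in AI-preg and at 2919, 3383, 3945, 7065 and 12871 CPM in non-pregnant plasma, also without ENSBTAG00000037264. On that scale all AI-preg values were above 3 of the non-pregnant ones and below the highest, heifer 101. With the full total the highest MIR375 level was instead in an AI-preg heifer, at 4636 CPM. The log2 fold change of MIR375 was 0.89 ± 0.68 (adjusted p = 0.670) and 0.55 without ENSBTAG00000037264. With the full total it was 0.63 without non-pregnant heifer 113 and 1.50 without heifer 101.

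bta-mir-182, expressed with its cluster in sensory and other epithelia, had 7 to 103 counts in AI-preg libraries and 3, 3, 7, 13 and 43 in non-pregnant ones. The log2 fold change was 1.90 ± 0.92 (adjusted p = 0.595) and 1.39 without ENSBTAG00000037264. With the full total it was 1.35 without AI-preg heifer 119 and 3.12 when non-pregnant heifer 101 was left out. bta-mir-200a, a miRNA that maintains the epithelial state, had 0.98 ± 0.78 with 0.50 without ENSBTAG00000037264, and bta-mir-205, found in stratified epithelium, had 0.52 ± 0.71 with -0.12 on that scale. The latter value of 0.52 was 0.28 without non-pregnant heifer 113 and 0.80 without non-pregnant heifer 101. The list's median was 0.93 beside 0.82 over all genes, and 0.53 beside 0.17 without that gene.

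**Figure D4:**
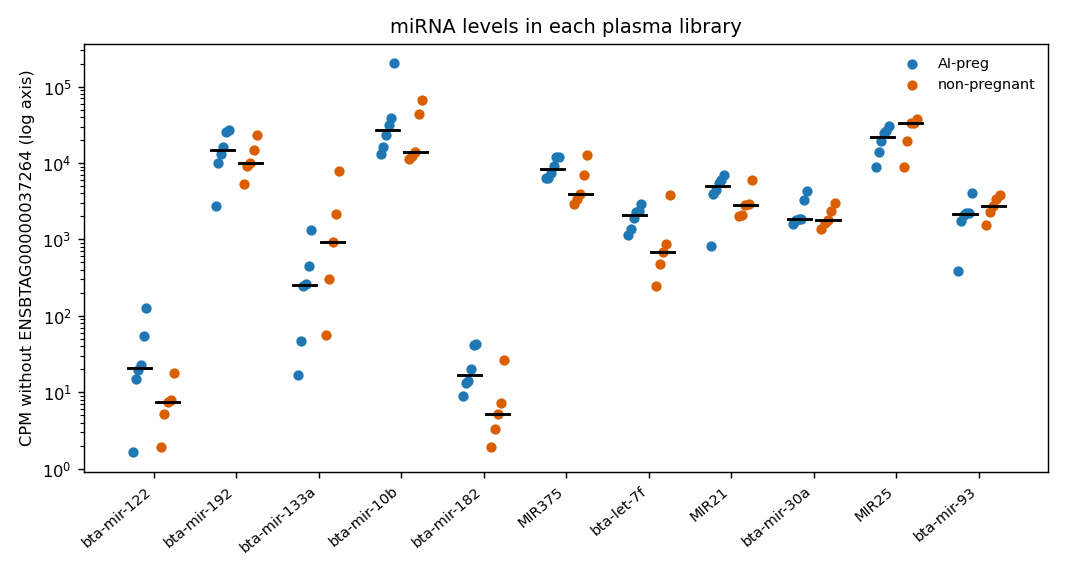
Levels of 11 miRNAs in each plasma library as CPM without ENSBTAG00000037264 (log axis), with 1 point per heifer and black bars at the group medians. The groups overlapped for each miRNA shown, and the highest point is bta-mir-10b in AI-preg heifer 120 at 200985 CPM.

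Among miRNA families, bta-mir-10b, which is encoded in a Hox cluster, stood out by abundance and by p. It was at 4454, 7113 and 66081 CPM in AI-preg plasma, and at 2424, 3285, 3336, 4137 and 8356 CPM in non-pregnant plasma. All AI-preg heifers were above 4 of the non-pregnant heifers, 2 were above all 5, and heifer 120 was far above the rest. That order belonged to the full total: without ENSBTAG00000037264 all AI-preg heifers were above 2 non-pregnant heifers and 1 was above all 5. The log2 fold change was 1.95 ± 0.71 (adjusted p = 0.496), and 0.66 without heifer 120. On other scales it was 0.85 without ENSBTAG00000037264, 0.29 with TMM factors and 0.52 with DESeq2 size factors.

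On the same list stood bta-mir-10a, of its own family, and bta-mir-125b, a miRNA of blood cell differentiation from another family, and differences between the 3 miRNAs were not tested. bta-mir-10a had a log2 fold change of 0.77 ± 0.66 and bta-mir-125b of 0.31 ± 0.70, and both turned negative without ENSBTAG00000037264 in the total (-0.19 and -0.56). With AI-preg heifer 114 left out they were 0.43 and -0.45 on the full total, and bta-mir-125b was 0.55 without non-pregnant heifer 107. For that list of the miR-10 and miR-125 families, 3 of 7 members were identified, and the median was 0.77 beside 0.82 over all genes.

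The let-7 family, which represses growth-promoting genes and accumulates in differentiated cells, had 9 identifiers for 7 of its 9 members. All 9 had fitted values above 0, as had 87.6% of all genes, and the median was 0.88 beside 0.82. Without ENSBTAG00000037264 in the total 7 were above 0 and 2 below, and with TMM factors 6 and 3, beside 60.2% and 45.9% of all genes above 0. bta-let-7f, the most abundant, was at 1141, 2092 and 2918 CPM in AI-preg and at 246, 480, 689, 867 and 3769 CPM in non-pregnant plasma without ENSBTAG00000037264. All 6 AI-preg heifers were above 4 of the 5 non-pregnant heifers, while non-pregnant heifer 101 had the highest level of all. Its log2 fold change was 1.10 ± 0.83 (adjusted p = 0.663), 0.72 without ENSBTAG00000037264, 2.37 without heifer 101 and 0.69 without heifer 119. MIRLET7G had 0.82 ± 0.85 and turned to -0.047 with TMM factors, and was 0.28 without AI-preg heifer 119. MIRLET7C had 0.55 ± 0.74 and turned negative on all 3 other scales (-0.057 without ENSBTAG00000037264) and without AI-preg heifer 114 (-0.014), and was 0.96 without non-pregnant heifer 115.

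The miR-181 family, known from lymphocyte development, had 6 identifiers for its 4 members, and all 6 were above 0 on each scale, as were 87.6% of all genes with the full total and 60.2% without ENSBTAG00000037264 (median 0.99 beside 0.82, and 0.75 beside 0.17 without ENSBTAG00000037264). The most abundant identifier, bta-mir-181a ENSBTAG00000029841, was at 5320, 10053 and 15101 CPM in AI-preg and at 4076, 4633, 4796, 6225 and 14203 CPM in non-pregnant plasma without that gene. The groups overlapped, with heifer 101 again the highest non-pregnant value. The log2 fold change was 1.00 ± 0.68 (adjusted p = 0.659) and 0.57 without ENSBTAG00000037264. With the full total it was 0.74 without non-pregnant heifer 113 and 1.71 without heifer 101. Identifiers that share a name (bta-let-7a, bta-mir-181a, bta-mir-181b and bta-mir-320a have more than 1 each) come from near-identical copies. Reads with several alignments were removed, so reads that aligned to more than 1 copy were not counted and these levels may be too low.

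The miR-30 family, with 4 of 6 members identified, had a median log2 fold change of 0.96 beside 0.82. bta-mir-30a had 1.10 ± 0.68 (adjusted p = 0.643) and MIR30E 0.44 ± 0.73, and the former was -0.0085 with TMM factors while the latter was negative on all 3 other scales and was 0.080 without AI-preg heifer 119 and 0.77 without non-pregnant heifer 101. The miR-17-92 cluster and its paralogs, which promote proliferation, had 5 of 13 members identified, all above 0 with the full total (median 0.42 beside 0.82) and all below 0 without ENSBTAG00000037264 (median -0.36 beside 0.17), where 60.2% of all genes were above 0. bta-mir-93 was at 381, 2122 and 4025 CPM in AI-preg and at 1545, 2303, 2737, 3417 and 3762 CPM in non-pregnant plasma on that scale, a log2 fold change of -0.39 against 0.38 with the full total. The latter was 0.18 without non-pregnant heifer 113 and 0.59 without AI-preg heifer 120. MIR18A had 0.23 ± 0.90 with the full total, from 0 counts in heifer 120 to 481 in heifer 92, and was -0.34 without heifer 92 and 0.61 without non-pregnant heifer 101.

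Of the miR-2284 and miR-2285 families, which are specific to ruminants, 3 identifiers were kept, with a median of 1.23 beside 0.82. bta-mir-2285t had 3, 10, 13, 17, 24 and 32 counts in AI-preg libraries and 1, 4, 4, 8 and 12 in non-pregnant ones, with 4 of 6 AI-preg CPM values above the highest non-pregnant one. Its log2 fold change was 2.34 ± 0.88 (adjusted p = 0.552) and 1.67 without ENSBTAG00000037264. From the imprinted DLK1-DIO3 locus 1 of 32 miRNAs was identified, bta-mir-411a, at 3.74, 15.8 and 85.3 CPM in AI-preg and 6.13, 17.2, 18.9, 27.8 and 34.4 CPM in non-pregnant plasma. Its log2 fold change was 0.24 ± 0.84 and turned negative on the other scales. It was -0.74 without AI-preg heifer 114 and 0.49 without non-pregnant heifer 115.

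Other miRNAs at an unadjusted p under 0.05 were bta-mir-1224 and bta-mir-2398, chosen after their values were seen. bta-mir-1224 was at 2.71, 4.61 and 19.6 CPM in AI-preg and at 0.391, 1.12, 1.44, 3.28 and 3.94 CPM in non-pregnant plasma (log2 fold change 1.81 ± 0.82, adjusted p = 0.595, and 1.34 without ENSBTAG00000037264). bta-mir-2398 had a log2 fold change of 2.40 ± 1.11 (adjusted p = 0.595), which was 1.92 without that gene and 0.65 without heifer 120.

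**Figure D5:**
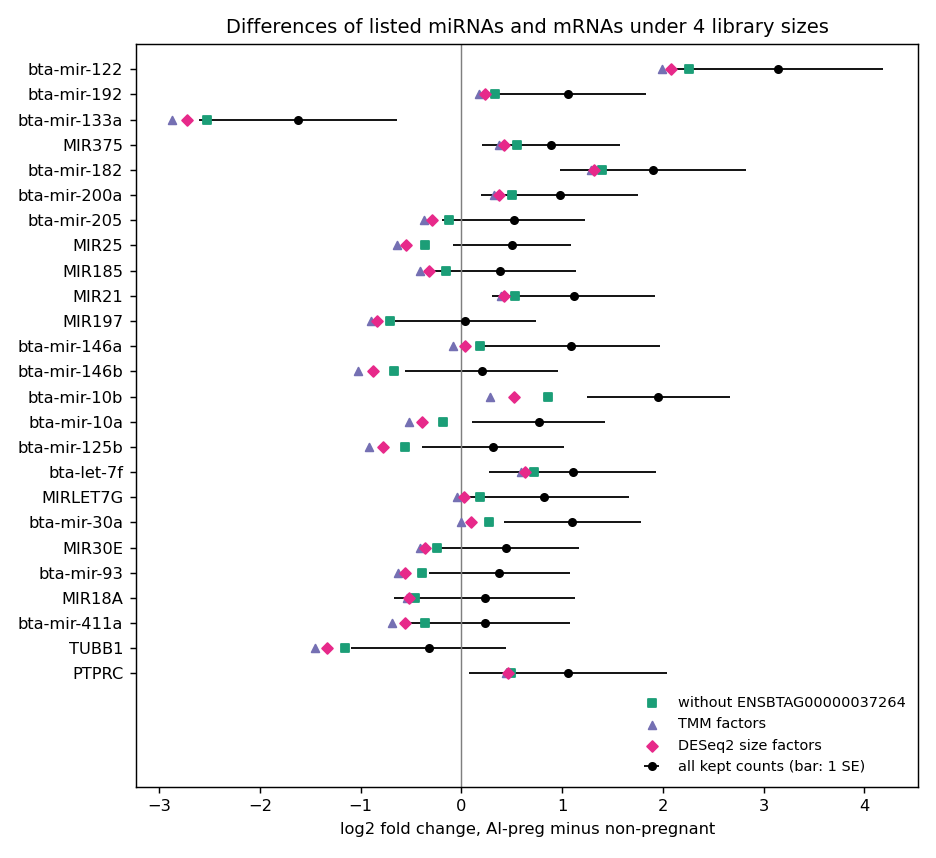
Log2 fold change, AI-preg minus non-pregnant (x axis), of 25 listed miRNAs and mRNAs (y axis) with all kept counts (black points, bars of 1 SE) and under 3 other library sizes (coloured symbols). bta-mir-122 and bta-mir-182 stayed above 0 and bta-mir-133a below 0 on all 4 scales, while MIR25, MIR185, MIR197, bta-mir-146b and others changed sides of 0.

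Named genes other than miRNAs numbered 139. Their fragments were rare in plasma, with a summed level of 222, 462 and 963 CPM (lowest, median and highest) in AI-preg libraries and a median of 232 CPM, with up to 595 CPM, in non-pregnant ones. Without ENSBTAG00000037264 in the total these sums were 986, 1736 and 2162 CPM against 1344, 1633 and 1841 CPM, so that the medians lay close together. None passed the test, 9 were higher and 0 lower at an unadjusted p under 0.05, a share near the 6.81% of all genes, and the median log2 fold change was 0.90 beside 0.82 over all genes, and 0.23 beside 0.17 without ENSBTAG00000037264. The names come from tables made for other comparisons of these heifers, of genes measured in PWBC, so they are not a random draw of the mRNAs in plasma.

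Ribosomal protein genes made up 30 of them. They summed to 37.2, 66.4 and 141 CPM in AI-preg and to a median of 23.4 CPM, from 18.4 to 62.3 CPM, in non-pregnant plasma. Without ENSBTAG00000037264 in the total they summed to 139, 257 and 429 CPM in AI-preg and to 123, 186 and 248 CPM (lowest, median and highest) in non-pregnant plasma, and the ranges overlapped on both scales. All 30 were above 0 with the full total (median 0.99 beside 0.82), as were 87.6% of all genes. On other scales 19 of 30 were above 0 without ENSBTAG00000037264 (median 0.32 beside 0.17) and 18 with TMM factors, beside 60.2% and 45.9% of all genes. RPL36, of the large subunit, had 1, 9, 10, 12, 18 and 21 counts in AI-preg libraries and 0, 1, 1, 3 and 4 in non-pregnant ones. In CPM, 5 of 6 AI-preg heifers exceeded the highest non-pregnant value, and the log2 fold change was 3.38 ± 1.03 (adjusted p = 0.496), 2.56 above the median of all genes and 2.98 without ENSBTAG00000037264. RPS10, of the small subunit, was at 1.64, 6.42 and 27.1 CPM in AI-preg and at 0.913, 1.33, 1.41, 1.81 and 9.22 CPM in non-pregnant plasma (log2 fold change 2.03 ± 0.89, adjusted p = 0.595). That value was 1.40 without ENSBTAG00000037264 and 3.11 without non-pregnant heifer 115.

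Some genes outside these lists were looked at after their values were seen. LSP1, an actin-binding protein of leukocytes, had 2, 6, 9, 10, 10 and 16 counts in AI-preg libraries and 0, 0, 1, 4 and 7 in non-pregnant ones (log2 fold change 3.21 ± 1.16, adjusted p = 0.496). ECE1, which activates endothelin, was at 0.992, 3.24 and 9.34 CPM against 0.111, 0.261, 0.823, 1.43 and 1.48 CPM, and 5 of 6 AI-preg values were above the non-pregnant range (2.38 ± 0.86, adjusted p = 0.496). MKI67, a marker of proliferating cells, had 0 to 23 counts against 2 to 9 (2.06 ± 1.00, adjusted p = 0.595), and the value was 1.22 without heifer 119. NUPR1, a stress-response regulator, had 25 counts in the AI-preg libraries and 3 in the non-pregnant ones, a ratio of 11.3 with an exact 95% interval of 3.44 to 58.3, and of 6.43 (1.96 to 33.3) without ENSBTAG00000037264 in the totals. Its fitted log2 fold change was 3.46 ± 1.34, from 2.39 without AI-preg heifer 119 to 4.72 without non-pregnant heifer 115. None of these 4 passed the adjustment, with adjusted p from 0.496 to 0.595, and each kept its direction on the other scales (2.41, 1.83, 1.09 and 2.59 for LSP1, ECE1, MKI67 and NUPR1 without ENSBTAG00000037264).

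In CPM, the groups did not overlap for 5 of 1086 genes higher in AI-preg (0.46%) and for 0 lower (0%). These were EEF2, RPS2, ENSBTAG00000005978, ENSBTAG00000026676 and ENSBTAG00000030014. EEF2, the factor that moves the ribosome along mRNA, was at 7.04, 9.08 and 19.4 CPM in AI-preg and at 1.56, 2.87, 3.29, 3.94 and 6.56 CPM in non-pregnant plasma (log2 fold change 1.52 ± 0.79, adjusted p = 0.595). RPS2 was at 1.69, 2.21 and 6.10 CPM against 0.294, 0.652, 0.985, 1.22 and 1.43 CPM (1.69 ± 0.80, adjusted p = 0.595). Without ENSBTAG00000037264 in the total, none of the 5 stood apart: 0 of 1085 genes were higher without overlap (0%) and 1 was lower (0.0922%). That gene was ULK1, a kinase that starts autophagy, with 0, 0, 1, 2, 2 and 4 counts in AI-preg and 3, 6, 7, 8 and 9 in non-pregnant libraries, and a log2 fold change of -1.28 ± 1.14 with the full total (adjusted p = 0.681) and -2.09 without ENSBTAG00000037264. With heifer 119 left out the former was -2.25, and with AI-preg heifer 99 left out it was -0.94. Each count of 0 allows up to 3 counts, as many as the lowest non-pregnant count, so this lack of overlap rests on few counts.

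The other 5 genes among the 10 with the lowest p on the higher side, none of them named, had log2 fold changes of 2.81 to 3.70 and p of 0.00163 or more. Of the 10 genes with the highest mean CPM, 6 more had no name, at mean levels from 8976 to 38458 CPM over the 11 libraries and log2 fold changes from 0.33 to 1.94. A pair of these, ENSBTAG00000042676 and ENSBTAG00000043492, had counts within a ratio of 0.985 to 1.01 in each library, and are not taken as independent measurements either. None of the 13 non-coding RNA classes listed, such as Y RNA and transfer RNA, could be matched to an identifier, so the class of these genes is not known here.

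On the lower side, the single gene at an unadjusted p under 0.05 was ENSBTAG00000020921, without a name. It had 277 counts in non-pregnant heifer 94, against 2, 4, 11 and 19 in the other non-pregnant libraries and 2, 2, 2, 4, 5 and 11 in the AI-preg ones. Heifer 94 alone set the difference: the log2 fold change was -2.63 ± 1.11 (adjusted p = 0.595) with it and 0.21 without it. The other unnamed genes among the 10 lowest p on that side had log2 fold changes from -2.09 to -1.36, ENSBTAG00000036363 included, and none had p under 0.0760.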

How the data were processed

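RNA was extracted from 1 ml of plasma with TRIzol and sequenced after a TruSeq Small RNA preparation. The deposited values are counts per gene that the authors made with HISAT2 2.1.0 on ARS-UCD1.2 and featureCounts 1.6.0 per the labels, single-end and without regard to strand, after removing reads with several alignments or 5 or more mismatches and leaving out reads marked as duplicates. Fragments of identical sequence can be real molecules in small RNA, so counts of abundant genes may be lowered where such reads were left out. The paper describes marking duplicates and counting only single reads without them for miRNA. ENSBTAG00000037264 still held 14887453 counts in heifer 107, more than 1 read kept per start position could give. Identical reads thus remained in the counts of that gene, and copies made by PCR may be among them. Whether small RNA reads were marked before counting could not be checked here. No molecular identifiers were used, so intervals cover counting error only. The annotation version differs between the authors' text and code.

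From these counts, genes over 1 CPM in 5 or more of 17 libraries were tested with edgeR 4.0.16 (quasi-likelihood, robust, 1 fit of 3 groups, library size the sum of kept genes, Benjamini-Hochberg threshold 0.05) under R 4.3.3. CPM (counts per 1000000) uses the sum of kept genes. Single values were compared by exact permutation in Python 3.11.15 (numpy 2.4.6, pandas 2.3.3, scipy 1.17.1, matplotlib 3.10.9). Both tests were tested on simulated data. Alternatives were other library sizes, TMM, DESeq2 1.42.0, the likelihood ratio test, other filters, miRNAs alone, 11 libraries and each library left out.

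Genes named are the 10 lowest p in each direction, the 10 highest mean CPM, miR-11995, ENSBTAG00000037264 and up to 4 members of each list by mean CPM. Unnamed genes and some list members are given as counts and ranges, and exceptions are stated. Members and lists were chosen with earlier results of these data known. Names came from the study's supplementary tables, which name 250 of the 1086 genes. The reference gene table (ARS-UCD2.0) matched 0 identifiers, so no sequence or position is given. Coexpression and NB-preg comparisons were not analysed here.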

Additional observations from a re-analysis of the deposited data

Results flagged for a closer look

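Each group of each kept gene named above, with the total counts and the share of ENSBTAG00000037264, was searched for 1 library far from the rest of its group. The search used the gap to the nearest library over the whole range (Dixon's ratio, on log2 of CPM + 0.5 for genes). It left out 7 of the 8 blood cell genes outside the lists, ENSBTAG00000042676 and ENSBTAG00000043492. Of 102 groups, 10 held such a library. Chance gives about 1 in 20 for independent, normally distributed groups. Many of these genes were picked by p, all share library totals and some groups hold counts of 0, so no excess over chance can be read from this. Heifer 120, the shallowest library, was far above the other AI-preg heifers for bta-mir-10b (66081 CPM, ratio 0.708) and bta-mir-2398 (26.2 CPM, ratio 0.680) and lowest for MIR18A (0 counts, ratio 0.636). That count of 0 allows up to 2.80 CPM, and with this value in its place the ratio was 0.389 and heifer 120 no longer stood apart. Heifer 114 was far above them for bta-mir-125b (430 CPM, ratio 0.635), and heifer 92 far below for bta-mir-146b (5.95 CPM, ratio 0.709).

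Among non-pregnant heifers, heifer 94 was far above the others for ENSBTAG00000020921 (30.6 CPM, ratio 0.737). For ENSBTAG00000052419 heifer 101 had 2 counts against 0 in the rest (0.328 CPM, ratio 1.00), but a count of 0 allows up to 0.615 CPM in heifer 115, so that no difference was detectable at this depth. Heifer 115 was far above the others for RPS10 (9.22 CPM, ratio 0.746). Its NUPR1 level was the highest as well (0.410 CPM from 2 counts, ratio 0.814), but a count of 0 allows up to 0.492 CPM in heifer 101, so that this too was not detectable as a difference. Heifer 113, with the highest share of ENSBTAG00000037264, was below them for bta-mir-93 with the full total (203 CPM, ratio 0.754). Without that gene in the total its bta-mir-93 level was 2737 CPM, the median of the non-pregnant heifers, so that it did not stand apart on that scale.

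The ratio on that second scale, computed after seeing the data, stayed past its critical value for bta-mir-125b (0.738) and for MIR18A and ENSBTAG00000052419, which rest on counts of 0. It fell below that value for bta-mir-10b (0.602), bta-mir-2398 (0.554), RPS10 (0.553), bta-mir-146b (0.476) and NUPR1 (0.437) as well as for ENSBTAG00000020921, although heifers 120, 115, 92 and 94 still held the highest or lowest level of their group there. What else set these heifers and heifer 114 apart was not tested.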

How the results depend on the processing

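Counts of genes past the threshold in the main test were 0 higher and 0 lower, and stayed 0 and 0 under other library sizes, with the 11 libraries alone, with each library left out (0 to 0), over 10 CPM (256 genes) and with listed miRNAs alone (119 genes). There was 1 higher by edgeR's likelihood ratio test, 1 by DESeq2, 25 where both tools gave an unadjusted p of 0.03 or less, and 2 with no filter (14280 genes), namely ENSBTAG00000048439 (adjusted p = 0.00257) and ENSBTAG00000036380 (adjusted p = 0.0195). A filter and library size without ENSBTAG00000037264 (3572 genes), chosen after seeing the data, gave 1, ENSBTAG00000036380 (adjusted p = 0.0252). No setting gave a gene lower. At an unadjusted p under 0.05, leaving out 1 library gave 33 higher (without non-pregnant heifer 113) to 157 (without non-pregnant heifer 115) in place of 74. The median log2 fold change of all genes was 0.56 (without AI-preg heifer 119) to 1.16 (without non-pregnant heifer 115).

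The share of ENSBTAG00000037264 differed by -16.0 to -8.26 points with each library left out (lowest exact permutation p = 0.0667), by -12.0 points over all genes of the table, and by -1.02 as a log2 ratio to the other counts (exact permutation p = 0.126). The log2 difference in total counts was -1.15 to -0.53 with each library left out, the unlogged difference was -3432010 counts (exact permutation p = 0.214), and none of these passed the threshold.

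The tally covers 50 genes named, and leaves out 7 blood cell genes outside the lists, ENSBTAG00000042676 and ENSBTAG00000043492. Of these 50 genes, the log2 fold change changed sign in 14 without ENSBTAG00000037264 in the total, 17 with TMM factors, 14 with DESeq2 size factors and 0 with the 11 libraries alone, and no value passed the threshold under these settings. Without ENSBTAG00000037264 the values were -0.35 for ENSBTAG00000029802, -0.023 for MIR423, -0.19 for bta-mir-10a, -0.56 for bta-mir-125b, -0.36 for MIR25, -0.16 for MIR185, -0.39 for bta-mir-93, -0.46 for MIR18A, -0.71 for MIR197, -0.67 for bta-mir-146b, -0.12 for bta-mir-205, -0.24 for MIR30E, -0.36 for bta-mir-411a and -0.057 for MIRLET7C. With TMM factors they were -0.58, -0.27, -0.52, -0.92, -0.64, -0.41, -0.63, -0.54, -0.89, -1.03, -0.37, -0.42, -0.69 and -0.40 for the same genes in that order, and -0.081 for bta-mir-146a, -0.047 for MIRLET7G and -0.0085 for bta-mir-30a. With DESeq2 size factors they were -0.52, -0.19, -0.39, -0.78, -0.55, -0.32, -0.56, -0.52, -0.83, -0.88, -0.29, -0.36, -0.56 and -0.27 for those 14 genes. Outside the 50, ENSBTAG00000042676 was 0.75 with the full total, -0.047 with TMM factors and -0.00039 with DESeq2 size factors. ENSBTAG00000043492 was 0.76, -0.045 and 0.0025 in the same order. Both were 0.13 without ENSBTAG00000037264. The other scalings lower the median of all genes as given above, which by construction moves each gene with it. With each library left out, 8 genes changed sign: MIRLET7C (-0.014 to 0.96), ENSBTAG00000020921 (-3.36 to 0.21), bta-mir-125b (-0.45 to 0.55), MIR18A (-0.34 to 0.61), MIR197 (-0.20 to 0.35), bta-mir-146b (-0.019 to 0.79), bta-mir-411a (-0.74 to 0.49) and TUBB1 (-0.58 to 0.022), and the cause was not tested.

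No paired analysis was possible because the AI-preg and non-pregnant groups share no heifer. Depth limits the low genes most: AI-preg heifer 120 had 381 of the 1086 genes at 0 counts, and the median over genes of the mean count was 10.9. Identifiers without a name, copies that share a name, and the pairing of ENSBTAG00000052419 with miR-11995 limit what a value can be assigned to.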

Other observations

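About as many plasma genes were found in PWBC as not. Of the 1086 plasma genes, 553 were at 2 CPM or more in 5 or more PWBC libraries (50.9%), against 5 of the 119 listed miRNAs (4.20%), where PWBC libraries measured mRNA. The 10 genes with the most counts held 85.8% of the kept counts in AI-preg heifer 119 and 98.1% in non-pregnant heifer 113. Genes with any count numbered 1617 in heifer 120 and 6524 in heifer 92, both AI-preg, and 3222 to 5582 in the non-pregnant libraries.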
